A study of Homo sapiens with 3 samples.

Results

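The CXC chemokines CXCL1, CXCL2, CXCL3, CXCL5, CXCL6, CXCL8, CXCL10, CXCL11, CXCL12 and CXCL16 were examined in the renal cell carcinoma line TK-10, which is of human origin. They are 10 of the 22435 genes with a named probe, and they were found by matching the RefSeq accession printed for each probe, which gave 16 of the 58201 probes. The data are 3 Agilent arrays with 1 colour, 1 for each condition and none replicated. The vehicle array was of cells given 0.1% DMSO. The cordyceps array was of cells given 750 μg/mL cordyceps according to its label, whereas the study's methods name cordycepin, a deoxyadenosine produced by fungi of this genus, at another dose. Nothing in the files decides between these agents, and the name on the label is used here. The sunitinib array was of cells given 10 μM sunitinib, an inhibitor of receptor tyrosine kinases. All cells were treated for 48 h, and the growth medium named for all of them contained fetal bovine serum, nicotinamide, troglitazone and zinc sulfate. A single cell line was used, and 1 culture stands for each condition.

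Chemokines are small secreted proteins that guide leukocytes through receptors on the cell surface, and in the CXC family 1 residue separates the first cysteines of the protein. Members with the residues glutamate, leucine and arginine before these cysteines are the ELR chemokines, here CXCL1, CXCL2, CXCL3, CXCL5, CXCL6 and CXCL8. They bind CXCR2, and some of them CXCR1 as well, and attract neutrophils. Their transcription is switched on by IL-1 and TNF through NF-κB, and their mRNAs are short-lived because of AU-rich elements. CXCL10 and CXCL11 are interferon-induced ligands of CXCR3 that attract T cells. CXCL12 is the ligand of CXCR4 and is made mainly by stromal cells, and CXCL16 is made as a membrane-bound protein that is shed by proteases and binds CXCR6. Renal carcinoma lines are known to secrete ELR chemokines, CXCL8 among them.

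On the sunitinib array, all 6 ELR chemokines were past 2-fold lower relative to vehicle, by 2.46-fold for CXCL5 to 9.36-fold for CXCL8. On the cordyceps array the same 6 genes spread in both directions, from 3.03-fold lower for CXCL6 to 1.99-fold higher for CXCL3. CXCL12 was well above background only on the vehicle array, CXCL16 was somewhat higher on both treated arrays, and CXCL10 and CXCL11 were not well above background on any array. Each of these statements compares single arrays. The errors given with signals are those that the scanner software estimated for the spot, and the 95% limit of a log2 ratio is taken from them. They do not contain the spread between cultures, which these arrays cannot show, so no p-value is given.

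All arrays shared 1 slide and 1 scan. Of all probes, 37.8% to 45.5% were well above background, and the 75th percentile of the signal was 165 on the vehicle array, 138 on the cordyceps array and 78.2 on the sunitinib array. Log2 levels were taken relative to that percentile. A bright streak of 578 spots crossed the cordyceps array, and 0 of the 16 chemokine probes lay in it. Of the 11 renal epithelial markers on the array, the same 9 were well above background on every array, among them PAX8, PAX2, KRT8, KRT18 and VIM, whereas the hypoxia-induced CA9 and the epithelial cadherin CDH1 were not. As the RNA came from whole cultures, fewer cells of a kind and less RNA per cell cannot be told apart.

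**Figure D1:**
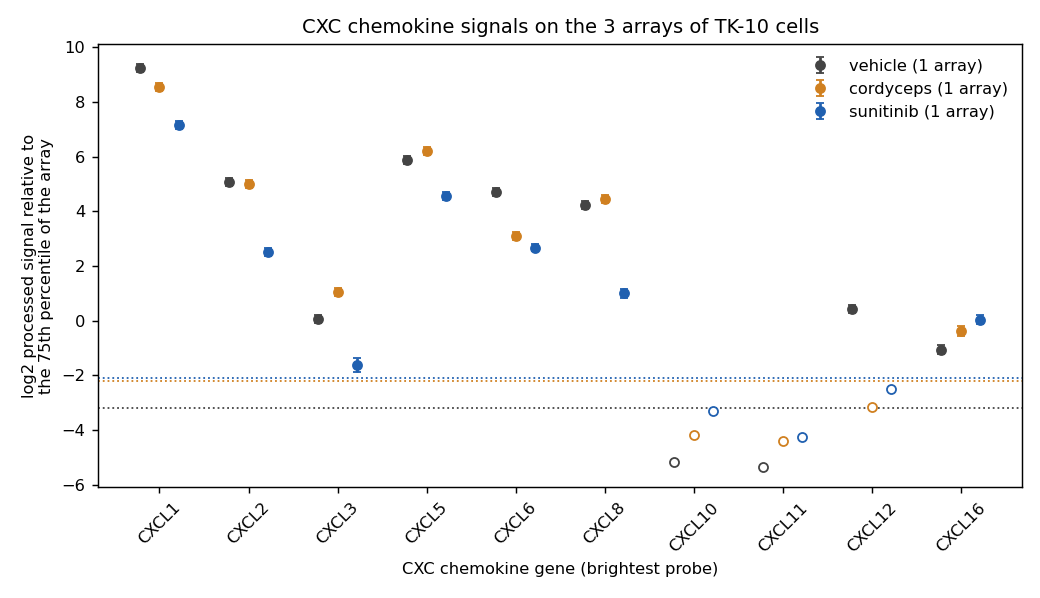
Level of the brightest probe of each CXC chemokine gene on the vehicle, cordyceps and sunitinib arrays, as log2 processed signal relative to the array's 75th percentile, with the spot error as bars. Filled points were well above background, open points were not, and dotted lines mark the lowest signal well above background on each array; the 6 ELR chemokines were lowest on the sunitinib array, and levels are to be compared between arrays, not between genes.

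The 6 ELR genes lie together on chromosome 4. The stretch of each promoter around the sequence that all 6 share is shown because it is what these genes have in common apart from their family and position. Sequences are from RefSeq (GRCh38.p14), are written 5′ to 3′ on the strand of the gene, and end upstream of the start of the gene. Capitals mark the match to the κB core GGAATTTCC, the sequence bound by NF-κB.
CXCL1, chr4:73869255-73869354, plus strand: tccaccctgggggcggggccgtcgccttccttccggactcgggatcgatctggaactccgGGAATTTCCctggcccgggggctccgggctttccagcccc
CXCL2, chr4:74099233-74099332, minus strand: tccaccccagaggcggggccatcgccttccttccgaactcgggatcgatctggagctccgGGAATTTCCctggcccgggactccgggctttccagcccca
CXCL3, chr4:74038728-74038827, minus strand: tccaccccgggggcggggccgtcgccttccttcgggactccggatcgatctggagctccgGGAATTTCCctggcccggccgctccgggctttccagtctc
CXCL5, chr4:73998728-73998827, minus strand: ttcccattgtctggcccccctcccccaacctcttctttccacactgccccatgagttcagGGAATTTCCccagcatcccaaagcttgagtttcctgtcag
CXCL6, chr4:73836529-73836628, plus strand: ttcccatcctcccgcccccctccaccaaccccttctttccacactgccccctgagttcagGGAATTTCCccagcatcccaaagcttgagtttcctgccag
CXCL8, chr4:73740418-73740517, plus strand: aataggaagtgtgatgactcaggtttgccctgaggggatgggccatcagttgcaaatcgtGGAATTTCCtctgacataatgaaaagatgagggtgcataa
The match began 77 to 91 bases before the start of the gene in all 6. In windows of 250 bases before to 50 bases after the start, searched on both strands, GGAATTTCC was present in 162 of 35116 promoters, or 0.461%. It was also present, on the opposite strand, in CXCL10 and CXCL11, and not in CXCL12, so that 8 of the 9 members with a promoter sequence held it. CXCL16 was not matched to a promoter sequence. The κB core with a further G in front, which overlaps the shorter match, was present in 0.145% of promoters and in CXCL1, CXCL2, CXCL3, CXCL5 and CXCL6. The AP-1 motif TGANTCA, bound by FOS and JUN proteins, was present in 7.71% of promoters, and among the members in CXCL8 and CXCL11. The interferon-stimulated response element was present in 3.57% of promoters and, among the members, in CXCL10. Over the 250 bases before the start, CXCL5 and CXCL6 were 85.3% identical and CXCL1 and CXCL3 were 81.4% identical, whereas CXCL8 and CXCL1 were 41.3% identical. These matches describe the sequence and do not show that a factor was bound.

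CXCL1, a neutrophil attractant first known as a melanoma growth factor, gave signals of 99473 ± 9947 with vehicle, 51784 ± 5178 with cordyceps and 11096 ± 1110 with sunitinib (probe A_23_P7144). It was highest with vehicle and lowest with sunitinib, and after scaling it was 1.61-fold lower on the cordyceps array and 4.26-fold lower on the sunitinib array. The log2 ratios were −0.69 and −2.09, each with a 95% limit of ± 0.40. A further, dimmer CXCL1 probe read 10813, 4927 and 1108 in the same order of arrays. Its log2 ratios of −0.88 and −2.21 differed from those of the first probe by less than their combined limit of 0.57.

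CXCL2, a close paralogue of CXCL1 made early in inflammation, had signals of 5519 ± 552, 4451 ± 445 and 444 ± 44.6 on the vehicle, cordyceps and sunitinib arrays. On the cordyceps array it was within the error of vehicle by this probe (log2 ratio −0.05 ± 0.40). A second CXCL2 probe read 4398, 2300 and 406, which gives a log2 ratio of −0.68 for cordyceps. The probes differed by 0.62, past their limit of 0.57, so whether CXCL2 was lower with cordyceps depends on the probe. For sunitinib they gave −2.56 and −2.37 and differed by 0.20, within the limit. CXCL2 was thus 5.91-fold lower on the sunitinib array by its brighter probe.

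CXCL3, a further paralogue of CXCL1, was much dimmer, with signals of 171 ± 17.6 on the vehicle array, 285 ± 29.3 on the cordyceps array and 25.5 ± 4.70 on the sunitinib array. It was the only ELR chemokine with a log2 ratio above the error limit on the cordyceps array, at 0.99 ± 0.41, or 1.99-fold higher, just inside the 2-fold limit. On the sunitinib array its signal was close to 18.3, the lowest signal well above background there, and it was 3.20-fold lower than on the vehicle array. With normexp in place of the deposited background subtraction, its log2 ratio for sunitinib was −0.78 in place of −1.68, short of 2-fold. CXCL1, CXCL2 and CXCL3 are similar in sequence, and cross-hybridization between their probes was not tested.

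CXCL5 and CXCL6 are another pair of paralogues, made by epithelium among other tissues, and both attract neutrophils. CXCL5 had signals of 9631 ± 963, 10083 ± 1008 and 1859 ± 186 on the vehicle, cordyceps and sunitinib arrays. CXCL6 had signals of 4294 ± 429, 1189 ± 119 and 501 ± 50.2 on the same arrays. The pair differed on the cordyceps array, where CXCL5 was within the error of vehicle (log2 ratio 0.32 ± 0.40) and CXCL6 was 3.03-fold lower (−1.60 ± 0.40). The difference between the log2 ratios was 1.92, with a limit of 0.57 from the spot errors. On the sunitinib array CXCL5 was 2.46-fold lower and CXCL6 4.08-fold lower, and the log2 ratios differed by 0.73. CXCL6 was the only ELR chemokine past 2-fold on the cordyceps array, and of the 13024 genes measured on both arrays only 51 had a lower ratio. CXCL6 was also the only one of the 6 whose levels on the cordyceps and sunitinib arrays were within 2-fold of each other (log2 ratio −0.43, sunitinib over cordyceps).

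CXCL8, also called IL-8 and the most studied neutrophil attractant, had signals of 3080 ± 308 with vehicle, 3032 ± 303 with cordyceps and 156 ± 16.4 with sunitinib. With cordyceps it stayed within the error of vehicle, at a log2 ratio of 0.23 ± 0.40. With sunitinib it was 9.36-fold lower (log2 ratio −3.23 ± 0.41), the lowest measured ratio among the members, and only 25 of 12984 genes measured on both arrays were lower. Between the treated arrays the log2 ratio was −3.46, again lower with sunitinib.

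**Figure D2:**
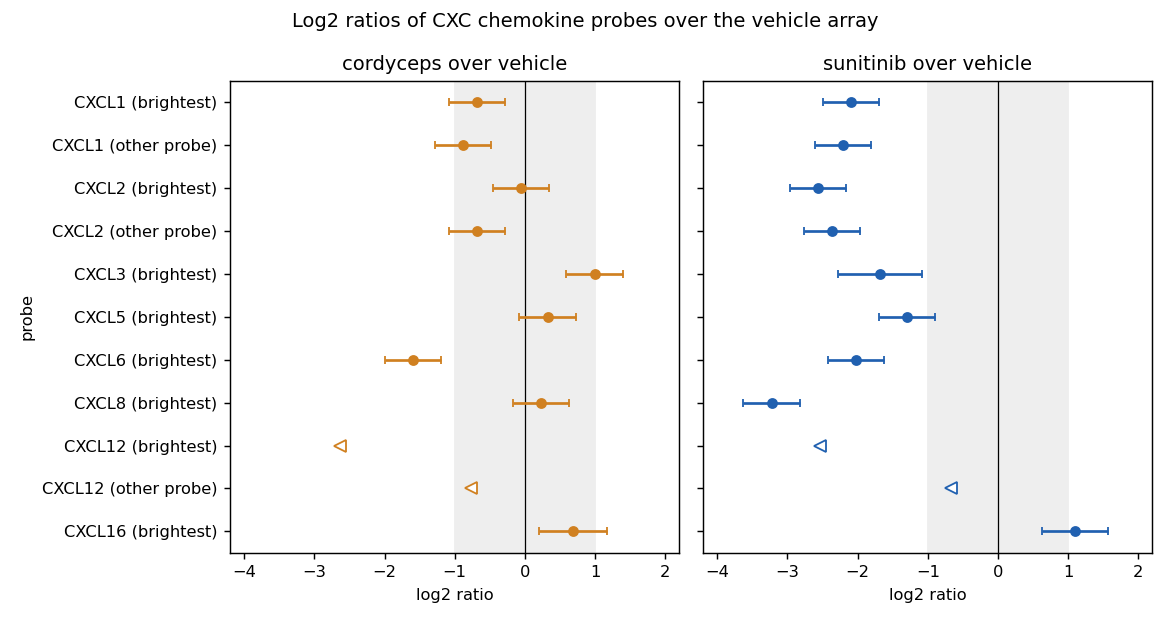
Log2 ratio of each CXC chemokine probe for cordyceps over vehicle (left) and sunitinib over vehicle (right), 1 array each, with bars for the 95% limit of the spot errors and open triangles for bounds, where the treated array was not well above background. Grey marks the range within 2-fold. All ELR chemokine probes lay to its left for sunitinib, and of these only CXCL6 did for cordyceps. The bounds of the brightest CXCL12 probe also lay to its left.

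As a group, the ELR chemokines had a median log2 ratio of −2.06 on the sunitinib array, or 4.17-fold lower, where the median of all 14896 genes compared was 0. All 6 of 6 were past 2-fold lower, beside 6.52% of all genes compared. The deposited values before scaling were lower over the whole sunitinib array, with a median log2 ratio of −1.06 over all genes, and the ELR median there was −3.13. With cordyceps the ELR median was 0.09, 1 of 6 was past 2-fold lower beside 2.76% of all genes, and 0 were past 2-fold higher beside 2.99%. The spread among the 6 was wider there, 2.59 between the lowest and the highest log2 ratio against 1.93 on the sunitinib array. Of the 15 pairs of ELR genes, 12 differed by more than their error limit on the cordyceps array and 9 on the sunitinib array. The share over pairs of other genes was not calculated. That limit holds spot errors alone, and the probes of CXCL2 itself differed by 0.62 on the cordyceps array, past their limit of 0.57. On sunitinib, CXCL1 and CXCL6, with log2 ratios of −2.09 and −2.03, did not differ beyond the limit. Neither of them differed beyond it from CXCL2 or CXCL3. CXCL8 was lower than each of the other 5 by more than the limit. Blood cells also make these chemokines, and of the 5 haematopoietic markers on the array 3 were well above background with vehicle, 1 with cordyceps and 2 with sunitinib, at a summed level of 4.89, 3.03 and 2.54 times the 75th percentile. The T-cell marker CD3E was detected on none, and the monocyte marker CD14, which made up most of the summed level, read 693, 374 and 116. The leukocyte marker PTPRC went the other way with sunitinib, reading 18.4 with vehicle and 45.7 with sunitinib, 5.23-fold higher after scaling. Its vehicle signal was close to 18.2, the lowest signal well above background there, and it was not well above background with cordyceps. The part of such cells in the ELR result was not tested.

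Set against each other, the treated arrays differed in 5 of the 6 ELR genes by more than 2-fold, each lower with sunitinib, beside 9.48% of 13879 genes compared, and 0 members were past 2-fold higher, beside 7.59%. These were CXCL1 (2.65-fold), CXCL2, CXCL3, CXCL5 and CXCL8. By the error limit, 6 of the 7 members measured on both were lower with sunitinib and 0 were higher, a limit that 25.2% of all genes passed downwards and 24.4% upwards. The vehicle signal is shared by the comparisons above and does not enter the direct ratio. For genes measured on every array, however, the direct log2 ratio equals the difference between the ratios over vehicle. It is therefore not a separate measurement, and the probes were chosen with the vehicle array included.

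**Figure D3:**
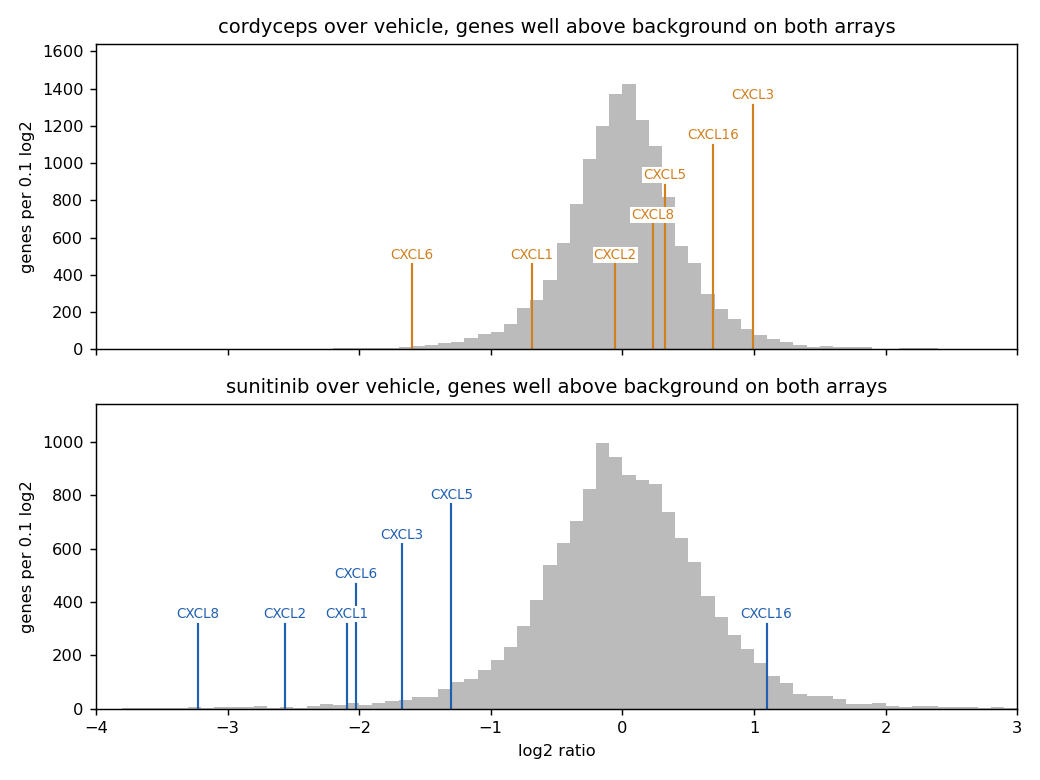
Number of genes by log2 ratio in bins of 0.1 for cordyceps over vehicle (top) and sunitinib over vehicle (bottom), for genes well above background on both arrays, with lines at the CXC chemokines measured on both (line heights carry no value, and genes beyond the ends of the axis are not drawn). For sunitinib the 6 ELR chemokines lay in the lower tail, from CXCL8 at −3.23 to CXCL5 at −1.30, and for cordyceps they spread from CXCL6 at −1.60 to CXCL3 at 0.99.

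CXCL12 was measured by 4 probes, not all of them made for different transcripts of the gene. The brightest had a signal of 224 ± 23.0 on the vehicle array, and of 15.5 ± 8.42 and 13.8 ± 5.39 on the cordyceps and sunitinib arrays, where it was not well above background. Against the lowest signal well above background on each treated array, it was at least 6.22-fold lower with cordyceps and at least 5.81-fold lower with sunitinib. Another probe read 61.4 on the vehicle array and was also not well above background on the treated arrays, which gives bounds of at least 1.70-fold and at least 1.59-fold lower. One more probe read 30.5 with vehicle, too dim for a bound. The last was made for the same transcript as the probe that read 61.4, and it was below detection on each array. With the probes of the gene averaged the bounds were log2 ratios of −1.14 and −1.07, and where detection on both arrays was required CXCL12 gave no ratio.

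Fibroblasts are a main source of CXCL12. Of their markers, COL1A1 and DCN were past 2-fold lower on both treated arrays, beside 2.76% of all genes with cordyceps and 6.52% with sunitinib. PDGFRB, the other marker compared, was not. Of 4 such markers, COL1A1, DCN and PDGFRB were well above background on every array and COL1A2 on none. Their summed level, in multiples of the 75th percentile, was 40.9 on the vehicle array, 12.8 on the cordyceps array and 12.2 on the sunitinib array. COL1A1, a collagen chain, read 5308, 1069 and 385, with log2 ratios of −2.06 and −2.71. DCN, the matrix proteoglycan decorin, read 707, 169 and 31.2, with log2 ratios of −1.81 and −3.43. PDGFRB, a receptor of mesenchymal cells, did not follow, with log2 ratios of −0.19 and 0.66. The part of other cells in the CXCL12 result was not tested.

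CXCL16 was low on all arrays, with signals of 79.5 ± 9.38, 107 ± 13.4 and 80.7 ± 9.50 for vehicle, cordyceps and sunitinib. After scaling it was 1.61-fold higher with cordyceps (log2 ratio 0.69 ± 0.49) and 2.14-fold higher with sunitinib (1.10 ± 0.47), the only member past 2-fold higher in a comparison, beside 6.44% of all genes. For sunitinib this rests on the scaling, as the signals themselves were nearly equal on the arrays. The log2 ratio was 0.76 with the arrays scaled to their medians and 0.02 with the deposited values unscaled.

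CXCL10 and CXCL11 gave no comparison. The CXCL10 probes read 3.72 to 8.01 and the CXCL11 probe 4.02 to 6.62 over the 3 arrays, all under the lowest signals well above background, which were 18.2, 30.2 and 18.3. A change below those levels could not have been detected. CXCL9, the remaining ligand of CXCR3, was likewise undetected.

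Over all 10 members, 8 could be compared between the cordyceps and vehicle arrays. Of these, 0 were past 2-fold higher, beside 2.99% of all genes compared, and 2 were lower, beside 2.76%. The lower ones were CXCL6 and CXCL12, the latter by its bound. Detected with vehicle only, CXCL12 could come out only as lower or without a ratio in either comparison over vehicle. With detection on both arrays required, 1 of 7 members was past 2-fold lower with cordyceps, beside 2.36% of the genes compared. Of the 7 measured on both arrays, 2 were higher and 2 were lower by more than the 95% limit of the spot errors, a limit that 15% of all measured genes passed upwards and 13.5% downwards. The higher ones were CXCL3 and CXCL16, and the lower ones CXCL1 and CXCL6. For sunitinib over vehicle 8 could be compared, with 1 past 2-fold higher (CXCL16), beside 6.44% of all genes, and 7 lower, beside 6.52%. These 7 were the 6 ELR genes and CXCL12 by its bound, and the median log2 ratio of the 8 was −2.06. With detection on both arrays required, 6 of 7 members were past 2-fold lower with sunitinib, beside 5.78% of the genes compared. All 6 ELR genes also passed the error limit downwards, as did 21.9% of the genes measured, and CXCL16 passed it upwards, as did 22.5%.

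The receptors of these chemokines were mostly not detected in the cells. CXCR1 and CXCR2, which bind ELR chemokines, were not well above background on any array, nor were CXCR4, the receptor of CXCL12, CXCR5, or CXCR6, the receptor of CXCL16. CXCR3 read 131, 122 and 96.1 by its brighter probe, with log2 ratios of 0.15 and 0.62 over vehicle, and its other probe was undetected throughout. ACKR3, which takes up CXCL12 and CXCL11 without classical signalling, read 589, 463 and 248, and its log2 ratios of −0.09 and −0.17 were within the error limit. ACKR1 read 36.3 and was above background on the vehicle array only. Of the 7 CXC genes that are not members, the platelet chemokine genes PF4 and PF4V1 were above background on the vehicle array only, and PPBP, CXCL9, CXCL13, CXCL14 and CXCL17 on none.

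Among 8 enzymes compared that cut or shed these chemokines, 1 was past 2-fold higher and 2 were lower on the cordyceps array, beside 2.99% and 2.76% of all genes compared. MMP1, a collagenase, had a log2 ratio of 1.84. MMP7, which sheds membrane proteins, had −1.66, and DPP4, which removes the first residues of CXCL12 and CXCL10, had −1.28. The same 3 were past 2-fold with sunitinib, 1 higher and 2 lower beside 6.44% and 6.52% of all genes, where MMP1 had 1.01, DPP4 −1.66 and MMP7 was at least 19.7-fold lower. ADAM10 and ADAM17, which shed CXCL16, were within 2-fold of vehicle on both arrays, with ADAM10 at −0.41 and −0.68 and ADAM17 at 0.02 and −0.42.

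Of the 11 cytokine and receptor genes listed for the induction of ELR chemokines, 10 could be compared. IL1RN, which encodes an antagonist of the IL-1 receptor, was among these 10, gave no ratio over vehicle and counted as 0 in the medians. On the sunitinib array 3 were past 2-fold lower and 0 higher, beside 6.52% and 6.44% of all genes, and the median was −0.56, beside 0 for all genes. IL1A, a cell-bound form of IL-1, read 1213, 1905 and 82.1 and had log2 ratios of 0.91 with cordyceps and −2.81 with sunitinib. IL1B, the secreted form, read 825, 1422 and 89.4, with log2 ratios of 1.04 and −2.13. IL6, a cytokine induced together with CXCL8 in many cells, had log2 ratios of −0.65 and −2.79. With cordyceps IL1B was the only one past 2-fold higher and the IL-1 receptor gene IL1R1 (−1.01) the only one lower, beside 2.99% and 2.76% of all genes, and the median was −0.32. TNF was above background on the vehicle array only, at 51.7, with bounds that stay within 2-fold.

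All 14 NF-κB subunit and inhibitor genes could be compared. On the cordyceps array 0 were past 2-fold in either direction, beside 2.99% higher and 2.76% lower over all genes, between NFKB1 at −0.81 and NFKB2 at 0.36. On the sunitinib array 2 were lower and 0 higher, NFKB1 (−1.25), which encodes the p50 subunit, and NFKBIZ (−1.38), which encodes a nuclear inhibitor family member needed for some cytokine genes. Over all genes 6.52% were lower and 6.44% higher. RELA, which encodes p65, had the highest ratio there, 0.58, and NFKBIA, the classical inhibitor gene, had −0.75. The medians were −0.05 and −0.24, beside 0 for all genes. These are mRNA levels and do not measure NF-κB activity.

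The 7 genes listed for the decay and stability of AU-rich mRNAs were all within 2-fold of vehicle on both arrays by their brightest probes. Over all genes, 2.99% and 2.76% were past 2-fold higher and lower with cordyceps, and 6.44% and 6.52% with sunitinib. ZFP36, which promotes decay of such mRNAs, had log2 ratios of 0.22 and 0.34, and the lowest was HNRNPD, at −0.99 with sunitinib. A second, dimmer HNRNPD probe was past 2-fold lower there, at −1.57. With cordyceps they ran from ZC3H12A, an endonuclease gene, at −0.51 to ZFP36L2 at 0.49. Of the 14 interferon signalling genes, 13 could be compared. With cordyceps JAK2, which encodes a kinase of cytokine receptors, was the highest, at 0.47. With sunitinib IRF9 (1.13) was higher and the receptor gene IFNAR2 (−1.07) and IRF1 (−1.33), which encodes an inducer of CXCL10, were lower, beside 6.44% and 6.52% of all genes. A further IFNAR2 probe was within 2-fold, at −0.92.

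In the order of genes on chromosome 4, the ELR chemokines occupy 1 stretch that runs from CXCL8 through CXCL6, CXCL1, CXCL5 and CXCL3 to CXCL2, with PF4V1, PF4 and PPBP between them. All 6 were past 2-fold lower with sunitinib, whereas RASSF6, on the side of CXCL8, had a log2 ratio of −0.51. Beyond CXCL2 lie MTHFD2L and the EGF-family genes EPGN, EREG, AREG and BTC. EREG read 2904, 2353 and 199, with log2 ratios of −0.05 for cordyceps and −2.79 for sunitinib. AREG read 329, 449 and 26.7, with 0.71 and −2.55. BTC had −0.58 and −1.16. Of the 15 neighbouring genes listed, 10 could be compared on the sunitinib array, with these 3 past 2-fold lower and PARM1, well above background with sunitinib only, at least 2.64-fold higher, beside 6.52% lower and 6.44% higher over all genes. On the cordyceps array 9 were compared and 0 were past 2-fold, beside 2.99% higher and 2.76% lower. NUP54 and SCARB2, farther along beside CXCL10 and CXCL11, had log2 ratios of −0.48 and 0.43 with sunitinib and were within 2-fold. CXCL12 lies on chromosome 10 and CXCL16 on chromosome 17.

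**Figure D4:**
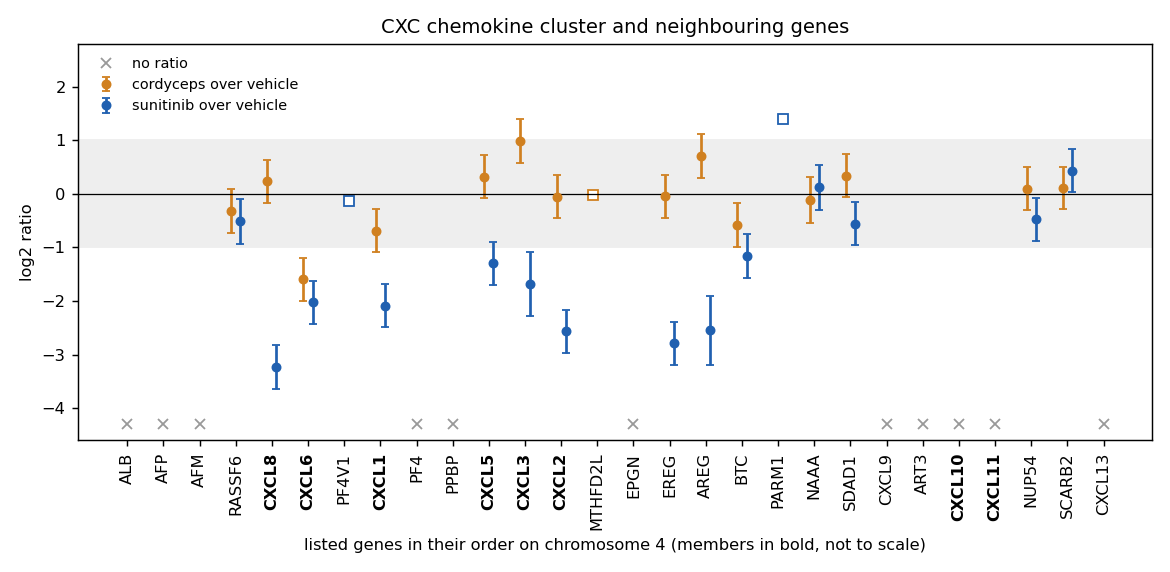
Log2 ratios over vehicle for the ELR chemokines, CXCL10, CXCL11 and listed neighbouring genes in their order along chromosome 4 (members in bold, distances not to scale), with bars for the 95% limit of the spot errors, squares for bounds and crosses for genes without a ratio in either comparison. For sunitinib, the ELR chemokines, EREG, AREG and BTC lay under the grey range within 2-fold, and RASSF6, NUP54 and SCARB2 lay in it.

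Of the 12468 genes well above background on all 3 arrays, the 5 whose pair of log2 ratios lay nearest the ELR medians of 0.09 and −2.06 were WFDC21P, KCNJ18, TMEM265, SNAR-A3 and NOG, by the larger of the differences between the ratios. WFDC21P, a pseudogene transcript, was the nearest, with 0.11 and −2.07, over the 3 arrays only. NOG, which encodes the BMP antagonist noggin, was the farthest of the 5, with a larger difference of 0.10. KCNJ18 and SNAR-A3 have near-identical copies in the genome, so their probes may not be specific.

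The alternatives to the main setting changed the scaling, the background correction, the filter, the choice of probe and the spots kept. All 6 ELR chemokines were past 2-fold lower with sunitinib under every one of them except normexp, where 5 were. CXCL6 was past 2-fold lower with cordyceps under all of them, with log2 ratios from −1.85 to −1.38. CXCL3 was past 2-fold higher with cordyceps where the arrays were scaled to their medians (1.21) or the streak was left out (1.03). CXCL2 and CXCL8 changed sign with cordyceps, as their log2 ratios ran from −0.37 to 0.17 and from −0.02 to 0.45.

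**Figure D5:**
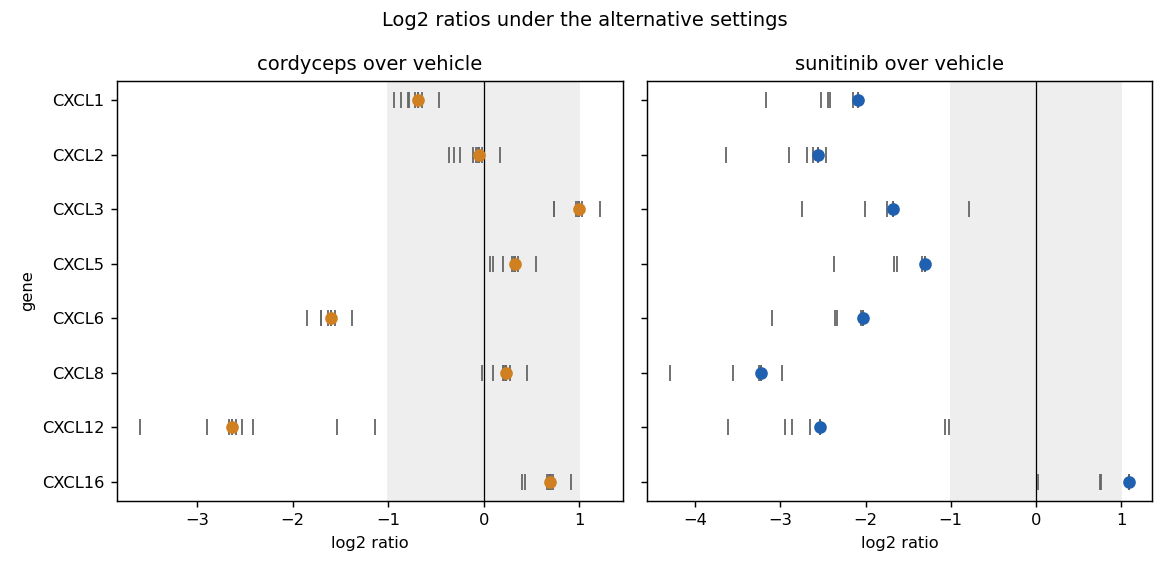
Log2 ratio over vehicle of each CXC chemokine that could be compared, under the main setting (points) and under the alternative settings (ticks), for cordyceps (left) and sunitinib (right); CXCL12 values are bounds in most settings. The 6 ELR chemokines stayed below 0 with sunitinib in all settings, and CXCL6 and CXCL12 stayed left of the grey range within 2-fold with cordyceps.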

How the data were processed

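Total RNA of TK-10 cells was labelled with Cy3, and 1 array was hybridized for each of 3 conditions, grouped by the agent in the labels. The study's methods describe another array and a ratio of red over green, which does not apply to these single-colour files, and of these methods the 2-fold limit alone was used. The authors deposited scanner tables from Feature Extraction 11.5.1.1, whose processed signal is an intensity on a linear scale after background subtraction and spatial detrending. A deposited table of the same intensity values, unscaled, served as an alternative. The header names hg19.

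From the processed intensity, control and outlier spots were left out, repeated spots were averaged by probe, and log2 values were expressed relative to the 75th percentile of all probes on that array. The E1A spike-in probes were too dim to check this scaling. Probes were named through RefSeq accessions (31100 of 58201 named), and the brightest probe over the 3 arrays stood for a gene. A gene was compared if 1 array of the pair or both detected its probe well above background. The dimmer side was raised to the lowest signal well above background, which makes the ratio a bound, and a bound that did not exceed 1 gave no ratio and counted as 0 in medians. A gene was counted past 2-fold. The 95% limit is 1.96 times the spot error on the log2 scale. Counts past 2-fold stand beside the shares over all genes, and no test across arrays was possible with 1 array per condition. The genes named are the 10 members with every probe, the pathway genes past 2-fold, the highest and lowest measured gene of each list and the 5 genes of like pattern; ADAM10, ADAM17, NFKBIA, ZFP36, TNF and the genes beside the chemokine cluster were named in addition, for their known role or place. Some genes that this rule selects are not reported here. The members, lists and rules were chosen with earlier results of these data known. Alternatives were 4 scalings, normexp (offset 50), 2 filters, 2 rules for probes, outlier spots kept, the bright streak left out (windows of 7 by 7 spots over 1.0 on the log2 scale) and a 1.5-fold limit. Python 3.11.15, numpy 2.4.6, pandas 2.3.3, Biopython 1.88, R 4.3.3 and limma 3.58.1 were used, and the calculation was tested on simulated data. The number of arrays limits the precision.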

Additional observations from a re-analysis of the deposited data

How the results depend on the processing

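Of the counts of members past a limit under an alternative, 64 stayed within 1.5 times the main count, equal counts of 0 included, and 8 did not. Of the log2 ratios of single members, 184 moved by less than the spot error, or the median error for bounds, and 67 moved further. A turn of direction was counted only for ratios past 2-fold in the main setting, and 0 turned. For cordyceps over vehicle, the count of higher members was 0 and became 1 with median scaling, 1 with the streak left out and 2 at a 1.5-fold limit, and the count of lower members went from 2 to 1 where detection on both arrays was required. For sunitinib over vehicle, the count of higher members went from 1 to 0 with median scaling, with unscaled values and with normexp, and to 3 without a filter, when CXCL10 and CXCL11 below background were counted. For sunitinib over cordyceps no count moved past 1.5 times. The causes were not tested beyond what the settings themselves change.

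Scaling shifted the median of all genes. With median scaling it was 0.18 for cordyceps and −0.31 for sunitinib over vehicle and −0.54 for sunitinib over cordyceps, and with unscaled values −0.24, −1.06 and −0.81. Beside these medians of all genes for sunitinib over vehicle, the ELR median was −2.39 with median scaling and −3.13 with unscaled values. Over all genes, 442 higher and 408 lower with cordyceps became 746 and 223 with median scaling, 273 and 834 unscaled, 192 and 187 with normexp, 1631 and 969 without a filter and 1288 and 1323 at 1.5-fold. For sunitinib, 959 and 971 became 523 and 1932, 161 and 8009, 326 and 842, 6239 and 1511, and 2290 and 2329 in the same order. For sunitinib over cordyceps, 1053 and 1316 became 305 and 3529, 183 and 5352, 307 and 1103, 2265 and 1776, and 2736 and 2765. The share of calls that were higher was 52% for cordyceps in the main setting, 77% with median scaling and 24.7% unscaled, and for sunitinib 49.7%, 21.3% and 1.97%.

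No paired analysis was possible because each condition had 1 array, which leaves a single pair in any comparison. Signals near background limit CXCL3 and CXCL12, and a signal under the lowest one well above background gave no ratio.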
